A study of Mus musculus with 4 samples.

Results

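The genes described here are the nuclear genes of oxidative phosphorylation (OXPHOS): every gene symbol starting with Nduf, Sdh (Sdha to Sdhd), Uqcr, Cox4i, Cox5, Cox6, Cox7, Cox8 or Atp5, except Cox6a2, with at least 100 unique molecular identifiers (UMIs, each standing for 1 captured RNA molecule) summed over the 4 libraries. Of 93 such symbols among 32285 genes, 90 reached that minimum. The 3 left out were Cox7b2 with 3 UMIs, Cox8b with 5 and Cox8c with 0. The lowest of the 90 was Ndufa4l2, with 383 UMIs. The 90 genes were 37 of complex I, 8 assembly factors of complex I, 4 of complex II, 8 of complex III, 16 of complex IV (Ndufa4 and Ndufa4l2 included) and 17 of complex V.

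Oxidative phosphorylation takes electrons from NADH at complex I and from succinate at complex II, passes them through complex III to oxygen at complex IV, and uses the proton gradient that this builds to make ATP at complex V. The mitochondrial genome encodes a small core of subunits of complexes I, III, IV and V, while all other subunits, including the whole of complex II, are nuclear genes and are imported. Activated lymphocytes raise both glycolysis and mitochondrial respiration, whereas neutrophils are known to rely mainly on glycolysis and to hold few mitochondria.

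The cells were leukocytes of tumours grown from B16-F10, a transplantable mouse melanoma line. On days 8 and 11, tumours were injected with CD40 antibody or its dilution buffer (CD40 licenses dendritic cells, macrophages and B cells to activate T cells), and the mice were given PD1 antibody or IgG by vein (PD1 restrains T cells that have met antigen). On day 14 live CD45+ cells from 6 mice per group were sorted as a pool and profiled by 5′ droplet sequencing, which gave 1 library per group: control (buffer and IgG), CD40 (with IgG), PD1 (with buffer) and combination (both antibodies). The labels used here give no strain or age. With 1 pooled library per group there is no spread between mice, so no difference below has a replicate check, and each interval covers counting error only.

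The libraries held 8132 to 10158 barcodes and 117735875 to 164755549 UMIs, and 7736 (control), 7757 (CD40), 9681 (PD1) and 9481 (combination) cells were kept after filtering. Any 2 libraries shared 94 to 144 barcodes, at most 1.73% of the smaller library. Cells were assigned by marker gates and are called "-like". The control, CD40, PD1 and combination libraries gave 4009, 4084, 5806 and 3565 mononuclear phagocyte-like cells (monocytes and macrophages), 193, 311, 144 and 913 neutrophil-like cells, 629, 1766, 999 and 2960 CD8 T-like cells, 405, 132, 405 and 169 regulatory T (Treg)-like cells and 329, 247, 462 and 302 NK-like cells. All 6 NK markers were detected in the NK-like cells of every library, at a summed 3149 to 4098 CPM (counts per 1000000 UMIs of the class), with 124 to 215 CPM of the 6 T cell markers. Levels are CPM: each UMI tags a 5′ end, so a level is a count of molecules and is not divided by transcript length.

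The promoters shown are those of 5 genes on which the results below turn. In NK-like cells, Sdhb was lowest in the control library and Cox5b was higher with CD40 antibody. The others are Cox6a1, lower in neutrophil-like cells, and the rare isoforms Cox7a1 and Cox6b2. Each window runs from 250 bases before to 50 after the RefSeq gene start, on build GRCm38.p6, 5′ to 3′ on the gene's strand, and capitals mark a match to a searched motif. The windows are chr4:140961021-140961320 (Sdhb, plus strand), chr1:36691237-36691536 (Cox5b, plus strand), chr5:115348909-115349208 (Cox6a1, minus strand), chr7:30183921-30184220 (Cox7a1, plus strand), chr7:4753045-4753344 (Cox6b2, minus strand).
Sdhb: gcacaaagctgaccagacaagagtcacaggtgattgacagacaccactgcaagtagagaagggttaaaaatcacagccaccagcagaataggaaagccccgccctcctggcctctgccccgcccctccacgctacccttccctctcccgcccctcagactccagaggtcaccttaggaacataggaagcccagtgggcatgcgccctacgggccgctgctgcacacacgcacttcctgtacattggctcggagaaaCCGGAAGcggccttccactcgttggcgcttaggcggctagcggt
Cox5b: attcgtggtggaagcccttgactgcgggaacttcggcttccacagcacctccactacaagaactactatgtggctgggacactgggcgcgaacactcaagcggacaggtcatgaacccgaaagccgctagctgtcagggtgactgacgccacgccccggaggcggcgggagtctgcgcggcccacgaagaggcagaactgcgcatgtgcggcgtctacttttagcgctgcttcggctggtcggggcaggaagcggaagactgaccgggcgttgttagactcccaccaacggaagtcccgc
Cox6a1: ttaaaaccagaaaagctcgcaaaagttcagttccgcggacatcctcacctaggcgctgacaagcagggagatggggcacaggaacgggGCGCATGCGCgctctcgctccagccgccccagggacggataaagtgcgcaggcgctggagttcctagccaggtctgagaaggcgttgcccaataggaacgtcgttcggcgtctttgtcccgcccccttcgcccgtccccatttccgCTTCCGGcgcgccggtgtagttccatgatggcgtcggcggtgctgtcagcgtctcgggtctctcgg
Cox7a1: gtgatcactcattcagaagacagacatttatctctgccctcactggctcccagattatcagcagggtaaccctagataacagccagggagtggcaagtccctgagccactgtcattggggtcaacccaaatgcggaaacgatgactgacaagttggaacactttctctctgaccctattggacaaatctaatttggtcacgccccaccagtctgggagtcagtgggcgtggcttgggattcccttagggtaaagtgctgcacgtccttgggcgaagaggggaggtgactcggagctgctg
Cox6b2: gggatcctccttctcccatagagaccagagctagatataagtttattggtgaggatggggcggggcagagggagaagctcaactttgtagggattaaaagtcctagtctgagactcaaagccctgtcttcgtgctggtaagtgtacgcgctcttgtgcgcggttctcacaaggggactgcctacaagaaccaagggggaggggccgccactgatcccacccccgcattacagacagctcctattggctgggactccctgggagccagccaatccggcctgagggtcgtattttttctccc

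Both strands were searched for the motif of NRF1, a transcription factor known for driving nuclear respiratory genes (the longer run of capitals in the Cox6a1 window), for CCGGAAG, the core of ETS factors such as GABPA, and for TGACCTTTG of ESRRA. None of the 3 motifs contains another, and the NRF1 motif reads the same on both strands. RefSeq windows were given for 73 of the 90 genes. The NRF1 motif stood in 7 of them (9.59%), against 1.07% of all 27025 genes with a window. They were Atp5g2, Atp5k, Cox6a1, Ndufa11, Ndufaf4, Ndufaf5 and Uqcrc1. The ETS motif stood in 19 (26.0%), against 9.93% of all genes, and the ESRRA motif in 0, against 0.544%. A match is a stretch of letters and not a measured binding site.

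Over all barcodes the most abundant member was Cox8a, a small membrane subunit of cytochrome c oxidase (complex IV), at 1113 CPM. The leading member of complex V was Atp5e, the epsilon subunit of the ATP synthase rotor, at 897 CPM, that of complex III was Uqcrh, the hinge protein, at 460 CPM, and that of complex I was Ndufa13, an accessory subunit, at 370 CPM. Sdhb, the iron-sulfur subunit of succinate dehydrogenase, led complex II at 235 CPM, and Ndufaf8 led the assembly factors at 63.1 CPM. The median member stood at 428 CPM in complex IV and 423 CPM in complex V, but at 171 CPM in complex I and 21.0 CPM among the assembly factors. The 4 lowest members, Cox7a1, Cox4i2, Cox6b2 and Ndufa4l2, were all tissue isoforms of complex IV.

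CD8 T-like cells devoted the largest share of their UMIs to the 90 genes in every library, and neutrophil-like cells the smallest. The share was 2.68% (control), 2.75% (CD40), 2.71% (PD1) and 2.69% (combination) in CD8 T-like cells, and 2.52%, 2.66%, 2.42% and 2.48% in phagocyte-like cells, which came next in every library. Among CD8 T-like cells, effector-like cells held 2.83%, 2.77%, 2.76% and 2.71%, and naive-like cells 2.09%, 2.23%, 2.14% and 2.35%. So the effector-like state was above the naive-like state in 4 of 4 libraries. Without dividing cells, defined below, CD8 T-like cells as a class held 2.35%, 2.54%, 2.45% and 2.49%. Phagocyte-like cells then held 2.36%, 2.45%, 2.32% and 2.33%, level with CD8 T-like cells in control.

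Phagocyte states were ordered in the same way in the control, CD40 and PD1 libraries. Macrophage-like cells held 2.73%, 2.86%, 2.67% and 2.74%, cells with the Spp1 and Arg1 markers 2.56%, 2.58%, 2.40% and 2.35%, classical monocyte-like cells 2.21%, 2.46%, 2.21% and 2.35%, and non-classical monocyte-like cells 2.10%, 2.31%, 2.14% and 2.29%. In the combination library the Spp1 Arg1 and classical monocyte-like cells were level.

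NK-like cells held 2.19%, 2.49%, 2.27% and 2.40%, and Treg-like cells 2.28%, 2.27%, 2.20% and 2.38%. Dendritic cell-like cells held 2.29%, 2.47%, 2.34% and 2.16%, CD4 T-like cells 2.05%, 2.42%, 2.04% and 2.42%, and B-like cells 1.62%, 1.88%, 1.65% and 2.09%. Only 49 and 38 dendritic cell-like, 49 and 36 B-like and 53 and 79 CD4 T-like cells came from the CD40 and combination libraries, so these values rest on few cells. Neutrophil-like cells held 1.11%, 0.995%, 0.910% and 0.590%, below every other class in the same library.

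**Figure D1:**
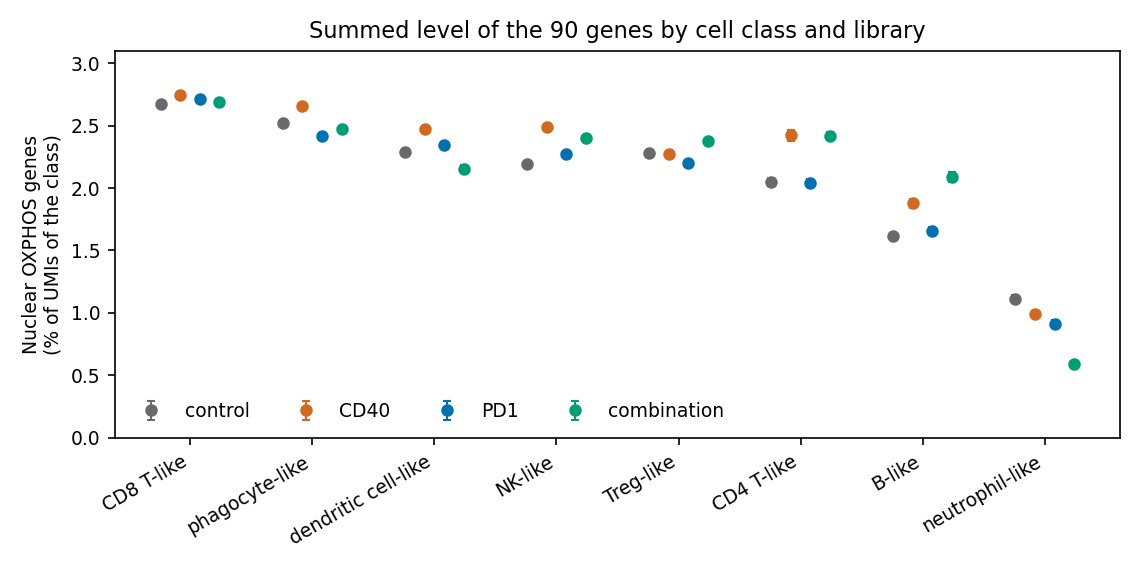
Share of UMIs (vertical axis, %) taken by the 90 nuclear OXPHOS genes in each cell class (horizontal axis), 1 point per library with a 95% counting interval that is mostly smaller than the point. CD8 T-like cells are highest and neutrophil-like cells lowest in each of the 4 libraries, with 0.590% in the combination library.

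The classes also differed in which members made up this share. Makeup was compared as each member's part of the 90 genes' UMIs, on a log2 scale against phagocyte-like cells of the same library, with at least 20 UMIs of the member in every library of both classes. In neutrophil-like cells Ndufa7, a complex I accessory subunit, was above its part in phagocytes by 1.19 to 1.58, Cox8a by 0.95 to 1.10 and Atp5l, a membrane subunit of ATP synthase, by 0.76 to 0.99. Atp5g3 stood at -1.53 to -1.20 and Atp5g2 at -1.44 to -0.65. Atp5g1, Atp5g2 and Atp5g3 encode the same mature c subunit, the protein that forms the rotor ring of ATP synthase.

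Other members differed from phagocytes in T and NK-like cells, and some of them in B-like cells too. Ndufaf7, an assembly factor that methylates a core subunit of complex I, was above its part in phagocytes by 0.72 to 1.10 in CD8 T-like, 0.78 to 1.09 in Treg-like and 0.93 to 1.52 in NK-like cells. Uqcrh was above by 0.44 to 0.74, 0.72 to 0.88 and 0.70 to 1.16 in the same classes, and by 0.89 to 1.24 in B-like cells. Sdhc, a membrane anchor of complex II, was at -0.97 to -0.63, -1.41 to -0.69 and -0.85 to -0.53. Atp5g1 was below its part in phagocytes in each of these 3 classes, at -0.93 to -0.71 in Treg-like cells, and in B-like cells it was at -0.65 to -0.21. Cox7a2l, reported to promote joining of complexes III and IV, was the leading member in B-like cells (0.96 to 1.50) and dendritic cell-like cells (0.66 to 0.98).

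The first comparison of treatment asks what CD40 antibody does without PD1 antibody (CD40 against control), and the second what it does with it (combination against PD1); these share no library. A member counts as past the fold when its CPM was at least 25% above that of the other library, or at least 20% below it, with at least 100 UMIs over both libraries in the class. That fold stands in place of a test, which 1 library per group does not allow. A list is described by the median log2 ratio of its measured members, with the medians of the members' 95% counting bounds in brackets.

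In phagocyte-like cells the member median stood slightly above 0 in both comparisons of CD40 antibody, and nearer to 0 without dividing cells. The median log2 ratio was 0.09 (0.04 to 0.12) in CD40 against control, with -0.01 for all genes, and 0.05 (0.01 to 0.09) in combination against PD1, with 0.01 for all genes. Without dividing cells, which were 15.9% (control), 22.4% (CD40), 7.63% (PD1) and 12.6% (combination) of the class, the medians were 0.05 (-0.0007 to 0.09) and 0.02 (-0.01 to 0.06), with bounds that reached below 0 in both. With dividing cells included, 1 of 90 members was past the fold upward in CD40 against control, where 12.0% of all genes were. In combination against PD1 the count was 0, against 10.2%. Downward the counts were 2 and 4, against 12.0% and 9.88% of all genes. The members past it downward were all tissue isoforms of complex IV, described below.

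Cox7a2l was that 1 member past the fold upward, at 128 CPM in control, 165 in CD40, 132 in PD1 and 152 in combination. Atp5b, the catalytic beta subunit of ATP synthase, read 559, 690, 591 and 648 CPM, a log2 ratio of 0.30 (0.29 to 0.32) and 0.13 (0.12 to 0.15). Ndufv1, the subunit that takes electrons from NADH, read 65.6, 80.9, 66.2 and 76.9 CPM. Each of these 3 was higher in the library with CD40 antibody in both pairs.

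Ndufa4, now counted as a subunit of cytochrome c oxidase, ran the other way, at 359, 311, 342 and 313 CPM in phagocyte-like cells. It read 397, 335, 350 and 334 CPM in CD8 T-like cells, 358, 291, 359 and 329 in Treg-like cells and 483, 381, 462 and 351 in NK-like cells. In each of these 4 classes the library with CD40 antibody was the lower one of both pairs, with an interval that reached above 0 only for Treg-like cells in combination against PD1 (-0.13, -0.27 to 0.02). The difference was past the fold in NK-like cells alone, at -0.34 (-0.47 to -0.21) and -0.40 (-0.51 to -0.28).

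The PD1 antibody was compared in the same way, in comparisons that share the control or CD40 library with those above. In phagocyte-like cells the median log2 ratio was -0.05 (-0.09 to -0.015) in PD1 against control and -0.09 (-0.13 to -0.07) in combination against CD40, against -0.06 and -0.04 for all genes. Past the fold were 1 member up and 3 down in the first, against 10.5% and 17.9% of all genes, and 0 up and 5 down in the second, against 10.7% and 17.0%. Ndufaf4, an assembly factor of complex I, read 24.2 CPM in control and 16.8 in PD1, a log2 ratio of -0.53 (-0.63 to -0.43).

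**Figure D2:**
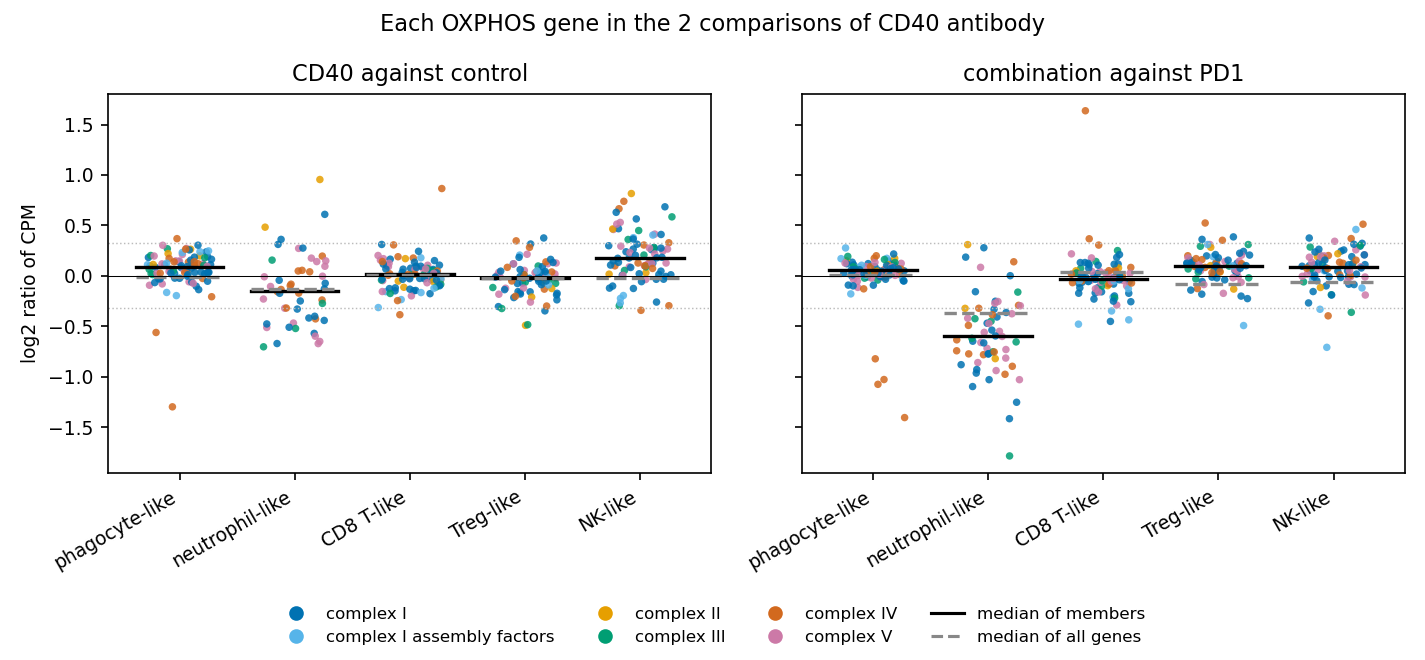
Log2 ratio of CPM (vertical axis) of each measured member, coloured by complex, in 5 cell classes for the 2 comparisons of CD40 antibody; solid bars are medians of the members, dashed bars medians of all genes, and dotted lines mark the fold used. Members cluster near 0 in phagocyte-like and CD8 T-like cells, lie at a median of 0.17 in NK-like cells of CD40 against control, and at -0.60 in neutrophil-like cells of combination against PD1.

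The members furthest from the others in phagocyte-like cells were the tissue isoforms of complex IV, which replace a common subunit in particular tissues or conditions. Cox6b2, best known from testis, read 3.59 CPM (control), 1.46 (CD40), 3.53 (PD1) and 1.67 (combination), a log2 ratio of -1.30 (-1.60 to -1.0) and -1.08 (-1.39 to -0.77). It was lower with CD40 antibody in each phagocyte state: from 5.71 to 3.08 CPM and from 5.67 to 3.55 in classical monocyte-like cells, from 6.04 to 2.23 and from 4.92 to 1.74 in non-classical ones, and from 2.92 to 1.04 and from 2.51 to 0.753 in macrophage-like cells. Spp1 Arg1 cells held 20 or fewer Cox6b2 UMIs in any library. Counts were also low in macrophage-like cells of the combination library, with 18 UMIs. Non-classical monocyte-like cells held 28, 29, 51 and 24.

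Cox7a1, the heart and muscle form of subunit 7a, read 12.4, 8.40, 8.88 and 5.02 CPM, a log2 ratio of -0.56 (-0.70 to -0.42) and -0.82 (-1.0 to -0.64). The control library was highest and the combination library lowest. It was most abundant in Spp1 Arg1 cells, at 20.8, 13.4, 19.8 and 8.71 CPM, and in macrophage-like cells, at 13.2, 10.5, 9.36 and 7.41 CPM. Classical monocyte-like cells, level between control and CD40, read 5.71, 5.58, 5.76 and 3.35 CPM, and non-classical ones 2.37, 1.08, 1.74 and 1.23. Cox7a1 UMIs were found in 15.6%, 15.3%, 11.0% and 8.78% of phagocyte-like cells. The class held 564, 384, 632 and 274 Spp1 Arg1 cells and 499, 1054, 1078 and 1024 non-classical monocyte-like cells. The part of this mix was not tested. Cox7a2, the common counterpart of Cox7a1, read 431, 486, 450 and 479 CPM in phagocyte-like cells. So the rare form was lower where the common one was higher in both pairs.

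Cox4i2, the hypoxia-linked form of subunit 4, was high in the PD1 library: 7.50, 7.36, 16.4 and 6.20 CPM, with UMIs in 7.78%, 8.59%, 10.9% and 6.06% of the phagocyte-like cells. The log2 ratio was 1.13 (0.99 to 1.28) in PD1 against control, but -0.25 (-0.42 to -0.08) in combination against CD40. The PD1 library was highest in macrophage-like cells (20.3 CPM, against 5.58 to 7.57 in the other 3 libraries), in Spp1 Arg1 cells (26.6 against 7.39 to 12.4) and in classical monocyte-like cells (12.6 against 4.00 to 5.39). Of 1486 UMIs in the PD1 library at most 22 came from 1 cell. The 4 stromal markers (Col1a1, Col1a2, Col3a1 and Dcn), for cells in which Cox4i2 is also known, summed to 0.282 CPM or less in phagocyte-like cells of any library. Whether some Cox4i2 UMIs came from other cells was not tested. Cox4i1 read 978, 1024, 941 and 933 CPM there, so Cox4i2 remained a small part of subunit 4 transcripts.

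Ndufa4l2, another hypoxia-linked form, came from only 15, 17, 27 and 10 phagocyte-like cells, with up to 38 UMIs in 1 cell. Its level of 0.531 to 1.21 CPM therefore describes a few cells and not the class.

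**Figure D3:**
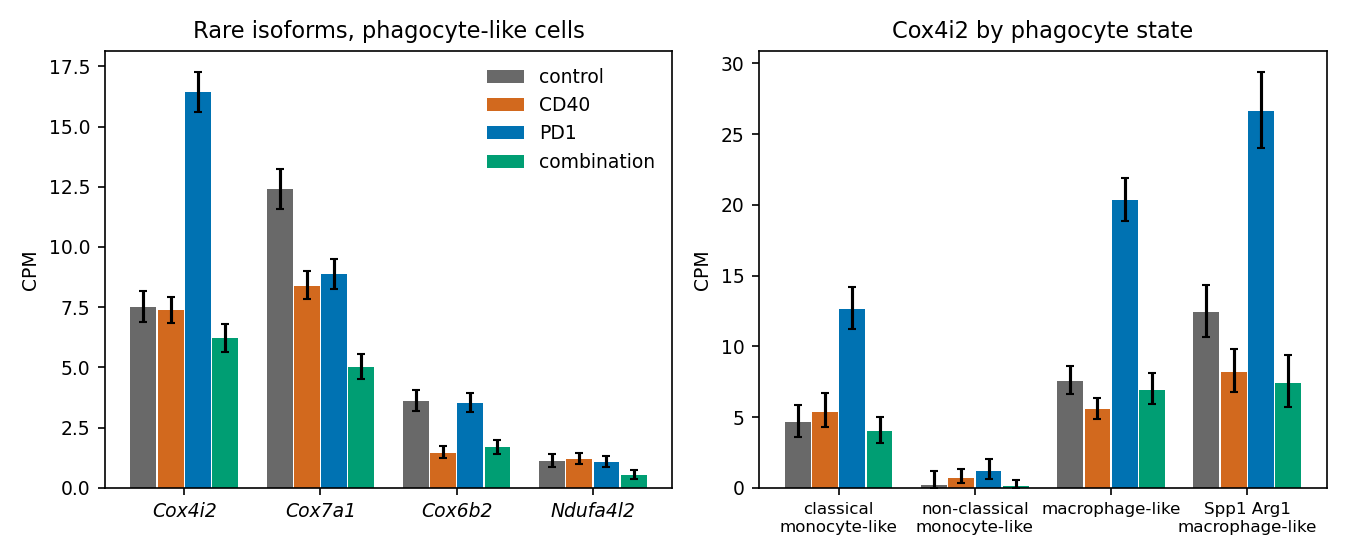
Level in CPM (vertical axes, bars from 0, with 95% counting intervals) of 4 rare complex IV isoforms in phagocyte-like cells of the 4 libraries, left, and of Cox4i2 in 4 phagocyte states, right. Cox6b2 is lower in both libraries with CD40 antibody, and Cox4i2 is highest in the PD1 library (16.4 CPM in phagocyte-like cells).

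In CD8 T-like cells few members differed by the fold in any comparison, while glycolysis genes were higher with either antibody alone than in control, 2 comparisons that share the control library. The median log2 ratio of the members was 0.02 (-0.06 to 0.09) in CD40 against control, -0.03 (-0.08 to 0.03) in combination against PD1 and 0.03 (-0.05 to 0.12) in PD1 against control. With equal weight for every cell it was 0.09 in CD40 against control and 0.10 in PD1 against control, and without dividing cells 0.07 in either; without mitochondrial, ribosomal and receptor genes in the denominator it was -0.06 and -0.02. Of 88 members 1 was past the fold upward and 1 downward in CD40 against control, where 13.4% and 14.1% of all genes were. In combination against PD1 the counts were 2 and 4, against 17.1% and 11.6%. They were 0 and 0 of 86 in PD1 against control, against 8.14% and 14.6%, and 1 and 1 of 88 in combination against CD40, against 6.65% and 5.45%, where the median was -0.02 (-0.06 to 0.03). Of 15 cytosolic glycolysis genes, 12 were past the fold upward in CD40 against control, with a median of 0.54, and 11 in PD1 against control, with a median of 0.50. In combination against PD1 and in combination against CD40 it was 1 of 15 each, with medians of 0.18 and 0.13. The 13 mitochondrially encoded chain genes had medians of -0.26 in CD40 against control and -0.34 in PD1 against control. Ribosomal protein genes, a sign of the makeup of the RNA, had medians of -0.23 and -0.09 there, and their part in these values was not tested. The states of the class differed too. Naive-like cells were 157 of 629 (control), 100 of 1766 (CD40), 134 of 999 (PD1) and 152 of 2960 (combination). Effector-like cells were 360, 1413, 759 and 2311 of the same cells. The part of this mix in the values of the class, Cox5a below included, was not tested.

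Within the members, Cox5a, a matrix-side subunit of complex IV, read 558 (control), 691 (CD40), 657 (PD1) and 656 (combination) CPM in CD8 T-like cells. The control library was the low one. Ndufab1, the mitochondrial acyl carrier protein that is also a complex I subunit, was lower in combination (158 CPM) than in PD1 (217 CPM), a log2 ratio of -0.45 (-0.51 to -0.40). Ndufaf2 and Ndufaf4, 2 assembly factors, were also past the fold downward in that comparison, at -0.48 (-0.62 to -0.34) and -0.44 (-0.57 to -0.30). Without dividing cells Ndufab1 was still past the fold downward there, at -0.39 (-0.49 to -0.28). Ndufaf2 was then at -0.26 (-0.55 to 0.03) and Ndufaf4 at -0.06 (-0.32 to 0.20).

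Cox6b2 in CD8 T-like cells did not follow its pattern in phagocytes. It read 3.23, 2.47, 1.40 and 4.36 CPM, from 31, 70, 27 and 222 UMIs, a log2 ratio of 1.64 (1.06 to 2.27) in combination against PD1. Those 222 UMIs came from 139 cells, with 19 from 1 of them. Cox7a1, lower with CD40 antibody in phagocytes, was past the fold upward in both comparisons in CD8 T-like cells, from 1.67 to 3.04 CPM and from 2.02 to 2.61, but from only 16 and 39 UMIs in the control and PD1 libraries, and its interval in the second pair spanned 0 (-0.16 to 0.92).

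Treg-like cells gave a median of -0.02 (-0.24 to 0.18) in CD40 against control. In combination against PD1 it was 0.10 (-0.10 to 0.27), but 0.016 with cells under 5% ribosomal protein UMIs left out and 0.0133 without dividing cells. Cells with under 1% of UMIs from the 90 genes, which were poor in ribosomal protein RNA, made up 18.5% of Treg-like cells in PD1 and 6.51% in combination. Of 82 members 2 and 4 were past the fold upward, against 13.6% and 9.76% of all genes, and 4 and 1 downward, against 17.8% and 25.9%. For PD1 antibody, 0 of 84 members were past the fold upward and 2 downward in PD1 against control (9.5% and 6.25% of all genes), and 3 and 0 of 80 in combination against CD40 (10.8% and 17.2%). Cox7a2, the common form of subunit 7a, was past the fold upward in both comparisons of CD40 antibody, at 317, 403, 328 and 471 CPM and log2 ratios of 0.35 (0.19 to 0.50) and 0.52 (0.39 to 0.65). Cox8a read 876, 1065, 902 and 1152 CPM in the same cells, past the fold only in the second pair. The electron-transfer core subunit Uqcrfs1, the Rieske protein of complex III, read 166, 158, 162 and 172 CPM.

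In CD40 against control, NK-like cells had the highest member median of the 5 classes compared, 0.17 (-0.01 to 0.36), with -0.02 for all genes. That rank depended on the processing. With equal weight for every cell the NK-like median was 0.07, below 0.09 in CD8 T-like and 0.08 in phagocyte-like cells. Without mitochondrial, ribosomal and receptor genes in the denominator it was 0.09, below 0.10 in phagocyte-like cells. In combination against PD1 the median was 0.09 (-0.08 to 0.24), with -0.06 for all genes. Of 83 members 20 were past the fold upward in CD40 against control, close to the 22.1% of all genes, and 1 was past it downward, against 25.8%. In combination against PD1, 6 of 84 were past it upward, against 13.9%, and 4 downward, against 22.4%. Members past it upward in both included Atp5f1, Cox5a, Cox5b, Ndufa10 and Ndufaf3. For PD1 antibody the counts were 6 upward and 4 downward of 83 in PD1 against control (10.3% and 11.2% of all genes) and 1 and 2 of 83 in combination against CD40 (7.5% and 9.28%).

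Cox5b, a zinc-binding subunit of complex IV, read 480, 761, 516 and 735 CPM in NK-like cells, a log2 ratio of 0.67 (0.55 to 0.78) and 0.51 (0.42 to 0.60). Cox5a read 307, 512, 362 and 468 CPM, a ratio of 0.74 (0.60 to 0.88) and 0.37 (0.26 to 0.48). Both libraries with CD40 antibody were above both without it for these subunits.

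Sdhb, whose ETS match is printed above, read 130, 229, 180 and 209 CPM, so the control library stood lowest and the ratio was 0.82 (0.60 to 1.04) in CD40 against control. It was also higher in PD1 against control, at 0.46 (0.24 to 0.69). Sdha, the flavoprotein that pairs with Sdhb, read 104, 105, 110 and 102 CPM and did not follow it.

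Other groups in NK-like cells were described alongside. Of 5 electron carriers and cytochrome c1, 4 were past the fold upward in CD40 against control, where 22.1% of all genes were, while combination against PD1 had 2, against 13.9%. Of 16 tricarboxylic acid cycle genes 7 and 3 were, with 1 downward in each, and of 14 measured glycolysis genes 11 and 8 were, with 1 and 0 downward. For the tricarboxylic acid cycle genes the second count is near the share of all genes. The 13 mitochondrially encoded chain genes had medians of -0.20 and 0.02, so the nuclear and mitochondrial parts of the chain differed in sign in the first pair.

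The share of dividing cells differed along with these values. Cells were called dividing when at least 3 of 10 cell cycle genes were detected, which was 0.912% of NK-like cells in control, 23.1% in CD40, 2.81% in PD1 and 22.2% in combination. The median depth also differed, at 5050, 10101, 5713.5 and 9925 UMIs per NK-like cell, and the gate is not corrected for depth. Without dividing cells the NK-like medians were 0.09 and 0.00, with 11 of 81 and 4 of 82 members past the fold upward, against 15.5% and 10.0% of all genes in these cells. Downward the counts were 2 and 5, against 24.6% and 23.5%. Cox5b remained past it in both pairs, at 0.40 (0.27 to 0.53) and 0.33 (0.22 to 0.43). Cox5a was at 0.51 (0.35 to 0.67) and 0.16 (0.03 to 0.29) and Sdhb at 0.64 (0.40 to 0.88) and 0.04 (-0.15 to 0.23). Ndufa4 was lower still, at -0.63 (-0.78 to -0.47) and -0.61 (-0.75 to -0.48).

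Dividing cells held more of the members than other cells of their class and library wherever both sides had at least 50 cells, and they were also deeper. The median phagocyte-like cell had 33274, 44777, 33784 and 43375 UMIs when dividing and 12620, 15791, 12352 and 16552.5 otherwise, and the median CD8 T-like cell 23331, 21065.5, 26886.5 and 22078.5 against 8466.5, 10435.5, 10308 and 10717.5. The part of depth in the values that follow was not tested. Phagocyte-like dividing cells had 2.88%, 2.94%, 2.90% and 2.89% of UMIs from the 90 genes, and the others 2.36%, 2.45%, 2.32% and 2.33%. The median log2 ratio was 0.31, 0.30, 0.33 and 0.34, against 0.07 to 0.10 for all genes, and 41, 44, 45 and 47 members were past the fold upward, where 32.6% to 35.5% of all genes were. CD8 T-like cells gave medians of 0.33, 0.22, 0.25 and 0.24. NK-like cells gave 0.25 (0.03 to 0.52) and 0.22 (-0.02 to 0.44) in the CD40 and combination libraries. Treg-like cells gave 0.29 (0.05 to 0.55) and 0.17 (-0.06 to 0.42) in the control and PD1 libraries. Past the fold upward were 37 of 80 and 30 of 81 members in NK-like cells, against 27.9% and 23.7% of all genes. In Treg-like cells they were 36 of 81 and 24 of 80, against 25.6% and 24.3%.

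The phagocyte states differed in this respect, since 33.0%, 49.2%, 19.5% and 38.6% of macrophage-like and 1.29%, 3.06%, 0.467% and 2.74% of classical monocyte-like cells were called dividing. Within macrophage-like cells the median was 0.23, 0.22, 0.24 and 0.28, against 0.09, 0.12, 0.10 and 0.11 for all genes. Of 88 members 27, 26, 31 and 38 were past the fold upward there, against 28.7%, 30.2%, 32.8% and 31.5% of all genes. In control and CD40 these counts are near the share of all genes. Downward they were 0, 0, 1 and 0, against 16.7%, 15.2%, 20.4% and 16.6%. Within effector-like CD8 T cells the median was 0.20, 0.20, 0.20 and 0.24, against 0.005, 0.003, 0.02 and 0.03 for all genes. The direction was the same within these states as over the class.

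**Figure D4:**
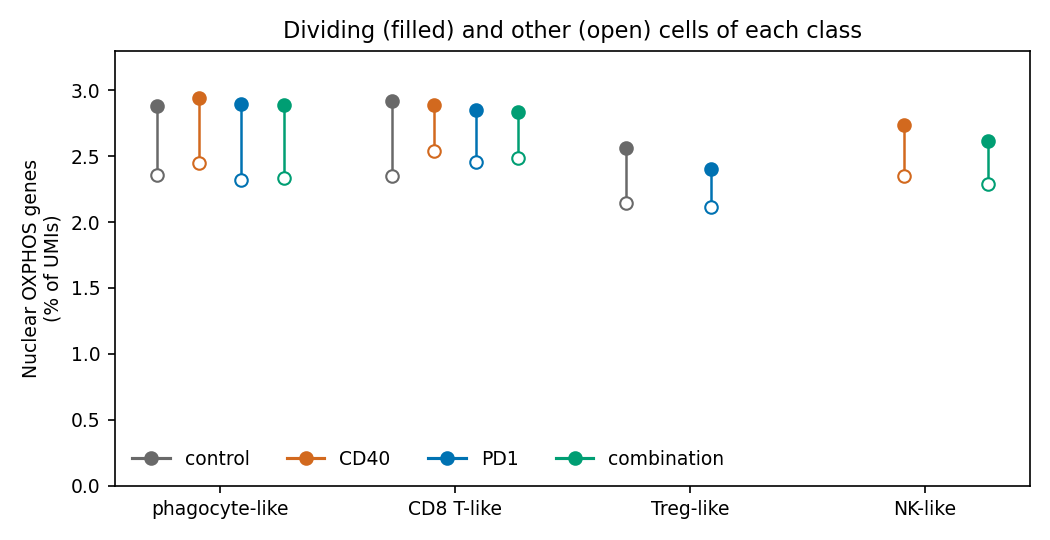
Share of UMIs (vertical axis, %) from the 90 genes in dividing cells (filled) and other cells (open) of each class, joined by a line for each library with at least 50 cells on both sides. The filled point is above the open point in all 12 pairs.

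Neutrophil-like cells had the lowest levels, and the combination library the lowest among them. The median log2 ratio of measured members was -0.15 (-0.54 to 0.255) over 50 members in CD40 against control, with -0.13 for all genes, and -0.60 (-1.15 to -0.04) over 61 in combination against PD1, with -0.37 for all genes. Past the fold downward were 16 of 50, against 32.6% of all genes, and 47 of 61, against 52.9%; upward they were 4 and 0, against 19.5% and 20.7%. In combination against CD40, which uses the deeper neutrophil libraries, the median was -0.83 (-1.15 to -0.46) over 66 members and 64 were past the fold downward, where 58.4% of all genes were and the median of all genes was -0.45. Upward the count was 0, against 14.1%. In PD1 against control the median was -0.21 (-0.71 to 0.16) over 28 members, 11 of them past the fold downward, against 19.9%, and 0 upward, against 13.7%. With cells of the joint phagocyte and neutrophil gate added, the medians were 0.04 over 77 members in CD40 against control and 0.03 over 70 in PD1 against control, so both changed sign, while combination against PD1 stood at -0.66 and combination against CD40 at -0.65. Members with under 100 UMIs over a pair were not measured in it.

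Atp5e, in neutrophil-like cells, read 737 CPM (control), 462 (CD40), 485 (PD1) and 253 (combination). Cox8a read 928, 845, 797 and 567 CPM, and Cox4i1, the common form of subunit 4, 467, 441, 412 and 246 CPM. For each of these 3 the control library was highest and the combination library lowest. Ndufb11, a membrane subunit of complex I, read 92.1 CPM in CD40 and 34.2 in combination, a log2 ratio of -1.43 (-1.80 to -1.06). Cox6a1, the common form of subunit 6a, read 231 CPM in control and 118 in PD1, a log2 ratio of -0.97 (-1.54 to -0.41). Some members did not follow this order. Cox7a2 read 273, 283, 218 and 240 CPM. Sdhb read 46.7, 90.5, 75.7 and 42.9 CPM, from only 19, 108, 25 and 182 UMIs, and was past the fold upward in CD40 against control, at 0.96 (0.24 to 1.74).

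The 13 chain genes of the mitochondrial genome ran the opposite way in neutrophil-like cells. They took 1.33%, 1.43%, 1.32% and 2.60% of UMIs, and all 13 were past the fold upward in combination against PD1 (median 0.88) and in combination against CD40 (median 0.91). Of 80 measured ribosomal protein genes, 52 and 79 were past it downward in the same comparisons, with medians of -0.53 and -0.72. Glycolysis genes had medians of 0.00 and 0.21. The 10 mononuclear phagocyte markers summed to 1483, 2167, 2009 and 942 CPM in these cells, lowest in the combination library, against 17205 CPM or more in phagocyte-like cells. The median neutrophil-like cell had 1928, 3464, 2162 and 4315 UMIs. The part of RNA quality, free RNA and cell state in the low member levels was not tested.

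A split of the neutrophil-like cells by Il1a, the gene of an inflammatory cytokine, was chosen after its values were seen. In the combination library 447 cells had an Il1a UMI and 466 had none, and the 90 genes took 0.421% (0.412% to 0.429%) of UMIs in the first and 0.789% (0.776% to 0.801%) in the second. The mitochondrially encoded genes took 2.99% and 2.14% and Fth1, ferritin heavy chain, 10.4% and 6.14% of UMIs in the same cells. Cells with Il1a were few in the other libraries, 6, 22 and 7, at 0.805%, 0.713% and 0.686%. In cells without Il1a the combination library was still lowest, since control read 1.13%, CD40 1.02% and PD1 0.932%. Cells with an Il1a UMI also had more UMIs, a median of 4859 against 3796 in the combination library.

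**Figure D5:**
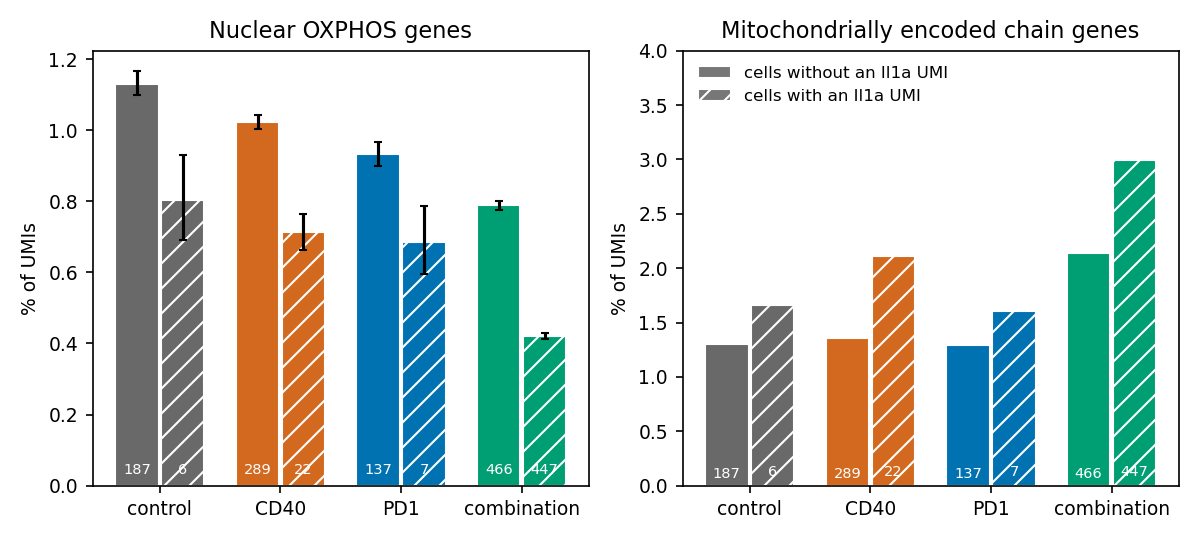
Share of UMIs (vertical axes, %, bars from 0) from the 90 nuclear OXPHOS genes, with 95% counting intervals, and from the 13 mitochondrially encoded chain genes in neutrophil-like cells without (plain) and with (hatched) an Il1a UMI; white numbers are cells. The combination library has the lowest nuclear share (0.789% and 0.421%) and the highest mitochondrial share (2.14% and 2.99%) for either kind of cell.

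Some cells of every class had under 1% of UMIs from the 90 genes. They were 46.1%, 55.0%, 54.2% and 85.3% of neutrophil-like cells, 12.1%, 12.1%, 18.5% and 6.51% of Treg-like cells, 4.26%, 6.88%, 5.19% and 6.29% of NK-like cells, 3.66%, 4.87%, 3.50% and 5.64% of CD8 T-like cells and 1.65%, 2.52%, 2.50% and 3.39% of phagocyte-like cells. Outside neutrophils, these cells were shallow and poor in ribosomal protein RNA. In CD8 T-like cells of the control library they had a median of 5891 UMIs, 4.93% mitochondrial UMIs and 4.72% ribosomal protein UMIs, against 12372.5, 1.68% and 27.1% in the others. What these cells are was not tested.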

How the data were processed

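The authors deposited UMI counts of each gene in each barcode, without normalization, from Cell Ranger 7.0.0 and build GRCm38, per the submitters' processing notes and the file headers; for the annotation release, cell calling and intron counting the setting is not given in the sources used here. Cells needed 300 genes and at most 10% mitochondrial UMIs, which 7847, 7906, 9938 and 9720 barcodes met. They also needed a Scrublet score under 0.25 (scanpy 1.11.5), and this step removed 111, 149, 257 and 239 of them. Marker gates, with thresholds set after the data were seen, assigned cells to 1 class. UMIs were summed per class and library, giving CPM with exact Poisson intervals and their log2 ratios with conditional binomial ones (exact, 95%), which cover counting error only. No test was run, since cells are not replicates. The ratio step was tested on simulated data. The members, lists and comparisons were chosen with earlier results of these data known. Named genes are the highest member per complex, fixed isoform families and core subunits, the 3 members per direction whose interval stood farthest from 0, and members past the fold in both CD40 comparisons; those leading the makeup of a class were ranked by their smallest log2 difference over the libraries, and others were chosen after their values were seen. Of the members that these rules name, 1 is not reported here. Coordinates are those of GENCODE vM21, where 12 members overlap a gene on their own strand and 33 one on the other. Their counts may include reads of that gene, as may those of members with pseudogene copies. Sums and intervals used numpy 2.4.6 and scipy 1.17.1 in Python 3.11.15, and figures matplotlib 3.10.9.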

Additional observations from a re-analysis of the deposited data

How the results depend on the processing

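Each of the 20 medians (5 classes, 4 comparisons) was recomputed with equal weight for every cell, gates that need 1 more marker UMI or 1 more distinct marker, predicted doublets kept, no mitochondrial filter, another denominator, dividing cells left out, a minimum of 10 UMIs, centring on the median of all genes, cells under 5% ribosomal protein UMIs left out (not in neutrophils) and, in neutrophils, cells of the joint phagocyte and neutrophil gate added. The second gate, the centring and the last 2 were added after seeing the data. Of the 200 values obtained, 10 had the other sign than the reported median. The Treg-like median in CD40 against control became 0.0467 with equal weight for every cell, 0.0289 without dividing cells and 0.001 centred on all genes. In combination against CD40 it was -0.0304 without dividing cells, and in PD1 against control 0.0192 without cells poor in ribosomal protein UMIs. The neutrophil-like median with the joint gate added was 0.0423 in CD40 against control and 0.0323 in PD1 against control. Without mitochondrial, ribosomal and receptor genes in the denominator, the CD8 T-like median was -0.0629 in CD40 against control, -0.0177 in PD1 against control and, with its sign kept, -0.0808 in combination against PD1. Centred on all genes, the phagocyte-like median became 0.011 in PD1 against control and -0.0544 in combination against CD40, and the neutrophil-like one in combination against CD40 -0.3837, by construction of the centring. Without dividing cells, the phagocyte-like median in combination against CD40 was -0.0626. The cause of the other changes was not tested. The bracket printed with a median is the median of the bounds of single members, so it does not measure the stability of the median. No paired analysis was possible because each group has 1 library, which also leaves no replicate to leave out. Depth limits the neutrophil-like comparisons to 28 to 66 measured members.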
